A study of Mus musculus with 2 samples.

Results

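The delta protocadherins are the non-clustered branch of the protocadherin family of cell adhesion molecules. The members described here are Pcdh1, Pcdh7 and Pcdh9 of the delta1 subfamily and Pcdh8, Pcdh10, Pcdh17, Pcdh18 and Pcdh19 of the delta2 subfamily, chosen by name as 8 of the 19202 genes with a row in the deposited table. Telencephalic tissue of C57BL/6 mouse embryos of embryonic day 12 was profiled by RNA sequencing. The genotypes were a conditional knockout of the histone variant H2A.Z (H2AZcKO, the knockout below) and a control (H2AZfl/fl, the control below). The control is labelled by its floxed alleles, which Cre can delete. No Cre driver is named in the sources used here, and the dissected tissue is called telencephalic in one label and cerebral cortex in the extraction protocol. The series text speaks of triplicates, but each genotype has 1 column of read counts in the table, referred to as its library, so no difference below has a replicate check and no p-value was computed.

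Each delta protocadherin is a single-pass membrane protein whose extracellular cadherin repeats bind mainly to the same protein on a neighbouring cell, and whose cytoplasmic tail carries short motifs shared within the subfamily. The delta1 members have an extra cadherin repeat and a tail motif that binds protein phosphatase 1, while several delta2 members recruit the WAVE complex, which nucleates branched actin. In the embryonic brain these genes are known for expression in distinct regions, layers and axon tracts.

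In these libraries none of the 8 transcripts differed between the knockout and the control beyond counting error, and their sum was close to the same in both. All 8 passed the level floor of 1 CPM, a read count scaled to the size of the library, in the higher library. Their summed counts were 3307 in the knockout against 3343 in the control, or a ratio of 1.02 (0.975 to 1.07) once the libraries were scaled. Ratios are knockout over control, and the range in brackets is an exact 95% binomial (Clopper-Pearson) interval from the counts. It holds counting error alone (some reads may be PCR copies, which only molecular identifiers could tell) and says nothing of the spread between embryos. Single members ran from 0.913 for Pcdh19 to 1.21 for Pcdh7. The size bound was a log2 ratio of 0.32 on the log2(CPM + 1) scale. For an abundant gene this is 25% above or 20% below the control, and for a scarce gene it takes a larger ratio of CPM, since 1 CPM is added to both levels. None of the 8 reached it in either direction, against 17.7% of all 14586 tested genes (7.94% higher and 9.79% lower). None was 1.5-fold apart either, where 1.92% of tested genes were higher and 3.03% lower, or 2-fold apart (0.151% and 0.48%). For none did the counting interval leave out a ratio of 1, against 23.7% of all tested genes (12.6% above and 11.2% below). Among the 5763 genes whose summed counts lay in the range of the members, 370 to 1764, these shares were 6.58% and 24.4%. In a list of 8 genes such shares amount to few calls, and nothing particular to the delta protocadherins was read from the zeros.

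The genes themselves share an architecture that the counts sum over. In GENCODE M21, the annotation that fits the deposited gene positions, the first coding exon of the transcript with the longest coding sequence held 84.3% of the coding length in Pcdh7, 82.97% in Pcdh10, 81.8% in Pcdh9 and in Pcdh8, 73.7% in Pcdh17, 73.1% in Pcdh18 and 62.5% in Pcdh19. In Pcdh1 the largest coding exon was the second, at 68.0%. Coding lengths without the stop codon lay between 3171 bases in Pcdh10 and 3765 in Pcdh7. The long exon is known to code for most or all of the extracellular repeats and, in most members, the membrane span. The short exons after it code for parts of the tail. No protein sequence was used here, so where the exons divide the protein was not checked.

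**Figure D1:**
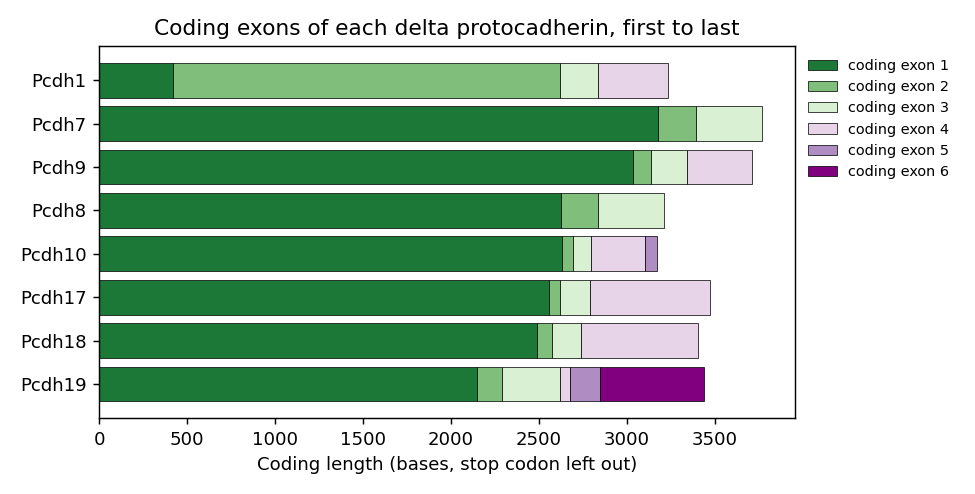
Coding length in bases of the transcript with the longest coding sequence of each of the 8 genes (x axis, stop codon left out), split into coding exons from the first to the last. In every gene but Pcdh1 the first coding exon is the largest, from 62.5% of the coding length in Pcdh19 to 84.3% in Pcdh7.

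Around these similar exons the genes differ in size. Pcdh9 spans 877 kb on chromosome 14 (93013410 to 93890679) and Pcdh7 415 kb on chromosome 5 (57717967 to 58133230), while Pcdh8 takes 4.54 kb on chromosome 14 (79766775 to 79771312) and Pcdh18 14.0 kb on chromosome 3 (49743296 to 49757325). Pcdh10 lies on chromosome 3 (45378398 to 45435623), Pcdh17 on chromosome 14 (84443563 to 84537060) and Pcdh19 on the X chromosome (133582860 to 133688987). Several of them stand far from other genes that were measured. The nearest tested protein-coding genes, leaving out predicted ones, lay 3597 kb and 4469 kb from Pcdh7, and 4542 kb (Pcdh20) and 2215 kb from Pcdh9, and no such gene lay in the 4672 kb between Pcdh8 and Pcdh17. Every member but Pcdh18 overlaps a predicted or RIKEN gene on the opposite strand, and Pcdh7 and Pcdh9 hold further predicted genes on their own strand. The sources used here do not say whether counting used strand, and unstranded counting would not separate the genes of such a pair.

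The start sites were compared through RefSeq promoter windows (GRCm38.p6) of 250 bases before to 50 after the start, which were matched for 7 of the 8 members and not for Pcdh1. They were compared by the dinucleotide CG, the target of DNA methylation, since H2A.Z is known to sit in the nucleosomes beside starts rich in CG. The windows held 11 CG in Pcdh7, 14 in Pcdh8, 18 in Pcdh19, 23 in Pcdh18, 24 in Pcdh10 and 26 in Pcdh17, with 18 and 19 in the overlapping windows of Pcdh9, against a median of 7 over all 32851 windows. Pcdh7 thus had more CG than 58.6% of all windows and Pcdh8 more than 63.7%, while Pcdh17 had more than 83.1%. The RefSeq start behind the Pcdh7 window lies downstream of the deposited start of the gene (57717967), unlike that of Pcdh17. No window set on the deposited start of Pcdh7 was compared. Of all windows 94.6% held at least 1 CG, and CG reads the same on both strands. The windows with the fewest and the most CG are shown to give this range, with each CG in capitals. They are chr5:57717831-57718130 on the plus strand for Pcdh7 and chr14:84443313-84443612 on the plus strand for Pcdh17.
Pcdh7: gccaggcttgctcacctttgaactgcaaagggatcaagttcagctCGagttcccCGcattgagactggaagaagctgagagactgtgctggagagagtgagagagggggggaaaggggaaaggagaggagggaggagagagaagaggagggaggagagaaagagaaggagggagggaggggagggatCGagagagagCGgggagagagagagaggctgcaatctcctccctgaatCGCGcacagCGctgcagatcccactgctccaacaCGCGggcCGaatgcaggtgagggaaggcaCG
Pcdh17: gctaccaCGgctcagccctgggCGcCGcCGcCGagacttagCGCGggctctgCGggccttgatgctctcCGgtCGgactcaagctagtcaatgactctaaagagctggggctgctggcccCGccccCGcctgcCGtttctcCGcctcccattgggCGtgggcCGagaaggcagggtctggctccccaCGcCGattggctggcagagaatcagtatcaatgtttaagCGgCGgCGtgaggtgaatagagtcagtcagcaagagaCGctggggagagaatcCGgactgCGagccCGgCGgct

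Of the 11 CG of Pcdh7, 7 lie in the last 100 bases of the window, from 50 before to 50 after the RefSeq start, against 8 of 26 in Pcdh17. The ratio was 1.21 (0.984 to 1.48) for Pcdh7 and 1.03 (0.857 to 1.2496) for Pcdh17. Pcdh8 was the 1 gene of the 7 with the letters TATAAA, searched on both strands, which 13.6% of all windows held. They stood at position -30 from the start, counting bases before it as negative, in the window chr14:79771263-79771562 on the minus strand, where they are in capitals.
Pcdh8: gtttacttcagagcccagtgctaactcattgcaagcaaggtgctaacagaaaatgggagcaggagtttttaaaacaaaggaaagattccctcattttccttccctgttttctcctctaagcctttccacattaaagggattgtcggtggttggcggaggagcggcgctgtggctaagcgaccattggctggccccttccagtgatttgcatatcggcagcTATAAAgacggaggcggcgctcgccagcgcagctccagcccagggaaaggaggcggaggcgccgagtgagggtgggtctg

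A match of these letters is a description of the sequence and does not show that a factor binds there. No measurement of H2A.Z or DNA methylation at these windows was used.

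Of the delta1 subfamily, Pcdh7 had the highest ratio of the 8. Pcdh7 (ENSMUSG00000029108), which through its tail binds protein phosphatase 1 and the SET protein, had 211 counts in the knockout and 181 in the control, or 24.2 CPM against 20.1 CPM. Its ratio of 1.21 had a counting interval of 0.984 to 1.48, and its log2 ratio of 0.26 passed the bound of 0.32 only after removal of a joint trend on GC content, level and transcript length (0.38). The interval holds both no difference and one of 25%, so at this depth the former could not be told from the latter. Pcdh9 (ENSMUSG00000055421), the gene with the longest span of the 8, had 174 counts against 196, or 19.96 CPM against 21.7 CPM, a ratio of 0.918 (0.744 to 1.13). Pcdh7 and Pcdh9 thus stood on opposite sides of 1 with overlapping intervals, while the 302 tested genes spanning 400 kb or more, a bound set to hold them both, had a median log2 ratio of -0.06 against 0.01 for all tested genes. Pcdh1 (ENSMUSG00000051375, chromosome 18 at 38185914 to 38212053), also known as an adhesion protein of airway epithelium, had 642 counts against 614, or 73.7 CPM against 68.1 CPM, a ratio of 1.08 (0.967 to 1.21). Summed, the 3 delta1 members had 1027 counts against 991, a ratio of 1.07 (0.982 to 1.17).

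The 5 delta2 members summed to 2280 counts against 2352, a ratio of 1.0 (0.946 to 1.06), and the interval of this sum overlapped that of the delta1 sum. Pcdh10 (ENSMUSG00000049100), which links homophilic contacts to the WAVE complex and is needed for growth of striatal axons, had the most counts of the 8, 858 against 906. Its levels were 98.4 CPM and 100 CPM, with a ratio of 0.980 (0.891 to 1.08). This was the tightest interval of the 8, and it leaves out a rise past 1.08-fold and a fall past 1.12-fold as far as counting error goes. Pcdh17 (ENSMUSG00000035566), known from cortex to basal ganglia circuits, had 226 counts in each library, or 25.9 CPM and 25.1 CPM, a ratio of 1.03 (0.857 to 1.2496). Pcdh18 (ENSMUSG00000037892), whose tail binds the reelin adaptor Dab1, had 263 counts against 257, or 30.2 CPM against 28.5 CPM, a ratio of 1.06 (0.888 to 1.26). Neither differed between the libraries beyond counting error.

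Pcdh8 and Pcdh19, both known to act together with N-cadherin, lay on opposite sides of 1. Pcdh8 (ENSMUSG00000036422), a protein of paraxial mesoderm and of synapses that removes N-cadherin from the surface through the kinase Taok2, had 458 counts against 425. This is 52.5 CPM against 47.1 CPM, a ratio of 1.11 (0.975 to 1.28). Pcdh19 (ENSMUSG00000051323), the X-linked gene mutated in an epilepsy of females, had 475 counts against 538, or 54.5 CPM against 59.7 CPM, a ratio of 0.913 (0.806 to 1.04). Both intervals held 1 and they overlapped each other. The libraries differ in sex-linked transcripts, with Xist at 732 CPM (knockout) against 22.2 CPM (control) and the 4 Y-linked genes checked at 0 to 5 counts against 190 to 647. The 508 X-linked tested genes had a median log2 ratio of -0.01, and the other X-linked delta protocadherin, Pcdh11x, stood at 1.28 (0.917 to 1.79). The part of this difference in the ratio of Pcdh19 was not tested.

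**Figure D2:**
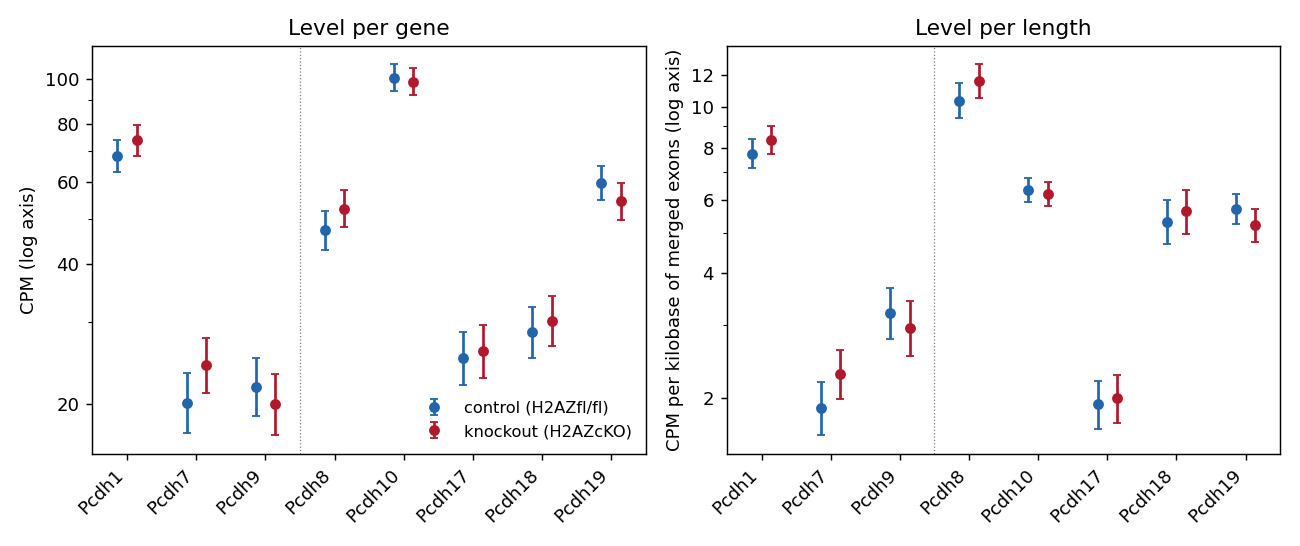
Level of each delta protocadherin in the control (blue) and the knockout (red), in CPM (left) and in CPM per kilobase of merged exons (right), both on log axes. Points are single libraries, bars are 95% Poisson counting intervals, and the dotted line separates delta1 from delta2. The bars of the 2 libraries overlap for every gene.

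Of the 8 members, 5 lay above a ratio of 1 and 3 below. The median of their log2 ratios was 0.06 against 0.01 for all tested genes. The median absolute log2 ratio was 0.11, the same as in the genes whose summed counts lay in the members' range. With TMM scaling, the whole counting interval lay within 20% below and 25% above the control for 4 members (Pcdh1, Pcdh10, Pcdh17 and Pcdh19). It lay within 1.5-fold for all 8. Pcdh17 (up to 1.2496) and Pcdh19 (down to 0.806) came close to these limits, and other scalings were not checked for this. In the authors' deposited table, which has 1 count column per genotype, none of the 8 is marked as significant. Neither the test behind that mark nor its input is named in the sources used here.

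**Figure D3:**
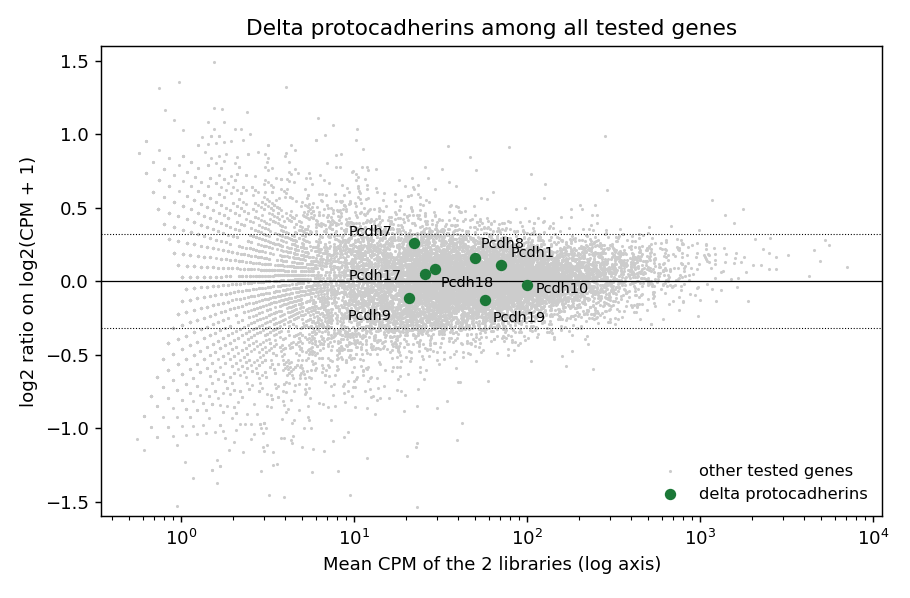
Log2 ratio (y axis, knockout over control, with 1 CPM added before the log) against the mean CPM of the 2 libraries (x axis, log) for all 14586 tested genes in grey, with the 8 delta protocadherins in green. Dotted lines mark the bound of 0.32, and 14 genes lie beyond the plotted range of 1.6. All 8 sit between the dotted lines.

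Levels between genes were compared per kilobase of merged exons, since a longer transcript gives more reads. In the control Pcdh8 was highest at 10.4 CPM per kilobase and Pcdh1 next at 7.74, and their Poisson counting intervals (95%) were apart from each other and from the rest. Pcdh10 (6.32), Pcdh19 (5.70) and Pcdh18 (5.31) followed, with each interval overlapping that of the next. Pcdh9 stood at 3.20, and Pcdh17 (1.93) and Pcdh7 (1.89) were lowest and overlapped. The knockout had Pcdh8 at 11.6, Pcdh1 at 8.37, Pcdh10 at 6.20, Pcdh18 at 5.62, Pcdh19 at 5.21, Pcdh9 at 2.94, Pcdh7 at 2.28 and Pcdh17 at 2.0 CPM per kilobase. The order of the libraries thus differed at 2 places, in neighbours whose intervals overlapped: Pcdh18 with Pcdh19 and Pcdh7 with Pcdh17. The intervals of Pcdh9 and Pcdh7 also overlapped in the knockout. The top of the order depends on the length used. Per kilobase of the longest transcript, in place of merged exons, Pcdh1 (12.6) and Pcdh10 (12.2) stood above Pcdh8 (10.4) in the control. The merged exons of Pcdh1 and Pcdh10 cover 8797 and 15888 bases, and their longest transcripts 5416 and 8234.

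The other non-clustered protocadherins of the list had few counts and wide intervals. Pcdh11x, a delta1 relative on the X chromosome, had 84 counts against 68, a ratio of 1.28 (0.917 to 1.79). With 1 CPM added its log2 ratio was 0.317, just under the bound. Pcdh12, a protocadherin of endothelium, had 40 against 28, a ratio of 1.48 (0.889 to 2.49), and was the 1 gene of the 4 past the bound, at a log2 ratio of 0.45. Pcdh15, of the tip links of hair cells, had 41 against 48 (0.884, 0.568 to 1.37), and Pcdh20 had 40 against 37 (1.12, 0.697 to 1.80). All 4 intervals held 1, and they leave room for differences that those of the 8 members do not.

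The clustered protocadherins, which share a chromosome region and give neurons their surface identities, lay lower. Their 52 genes in the table summed to 1561 counts in the knockout against 1950 in the control, a ratio of 0.828 (0.774 to 0.886), whose interval does not meet that of the 8 delta protocadherins (0.975 to 1.07). The sums were at 0.698 (0.525 to 0.923) for the alpha, 0.774 (0.670 to 0.894) for the beta and 0.858 (0.793 to 0.929) for the gamma cluster. Of 40 tested clustered genes 16 were lower past the bound (9.79% of all tested genes were) and 1 higher (7.94%), against 0 and 0 of the 8. These genes have few counts each, and by the counting interval 5 of the 40 lay below 1 and 0 above, beside 11.2% and 12.6% of all tested genes. With 1 library per genotype this gap between families was compared through counting error only, and reads of the exons that alpha or gamma genes share cannot be assigned to a single gene. The 16 classical-type cadherins in the table, of which 15 were tested, summed to 7274 counts against 7359. The ratio of these sums was 1.02 (0.990 to 1.06), close to the delta protocadherins. N-cadherin (Cdh2) gave 3674 and 3732 of these counts, at a ratio of 1.02 (0.973 to 1.07), so it weighs heavily in the sum. Among the 15 tested cadherins 2 were higher past the bound and 3 lower. Cdh20, at 72 counts against 34, had a ratio of 2.19 (1.44 to 3.40), while Cdh6, at 14 against 38, had 0.381 (0.191 to 0.720) and Cdh9, at 8 against 20, had 0.414 (0.158 to 0.981).

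**Figure D4:**
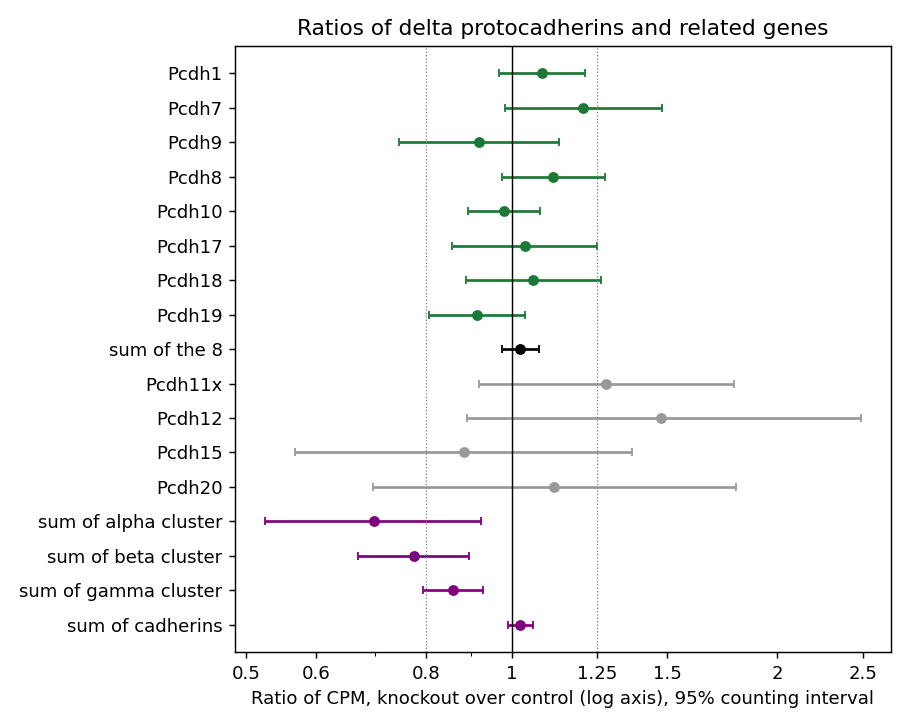
Ratio of CPM, knockout over control (x axis, log), with 95% counting intervals, for the 8 delta protocadherins (green), their sum (black), 4 other non-clustered protocadherins (grey) and the sums of the clustered genes and of the cadherins (purple). Dotted lines stand at ratios of CPM 20% below and 25% above 1, while the bound itself was set with 1 CPM added, so that Pcdh11x lies past the right line and not past the bound. The intervals of all 8 members cross 1, while the 3 cluster sums lie below it.

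The genes that delta protocadherins are known to act through were within the bound as well. Of 19 listed partners, all tested, none was past it, beside 17.7% of all tested genes. The share was 6.58% among genes in the members' range of counts, and nothing was read from this zero. Of the 19 partners, 15 lay above a log2 ratio of 0 and 4 under it (median 0.04). The counting interval lay above 1 for 7 of the 19 and below for 2, beside the 12.6% and 11.2% of all tested genes given above. Many partners have high counts, up to 7657 and 7682 for Nono, and their narrow intervals leave out 1 at smaller ratios. No share matched on depth was computed for them, and no excess was read from these counts. In the WAVE complex, Nckap1, the subunit that Pcdh10 and Pcdh19 bind, was at 0.991 (0.931 to 1.05). Cyfip1 stood at 0.975 (0.870 to 1.09), and Cyfip2, with 1642 counts against 1818, at 0.934 (0.874 to 0.999), below 1 by a narrow margin. Abi1 was at 1.10, Abi2 at 1.01 and Brk1 at 1.01, each with an interval that held 1. Its actin-activating subunits stood on both sides, with Wasf1 at 1.17 (1.06 to 1.29), Wasf2 at 1.13 (1.01 to 1.27) and Wasf3 at 0.820 (0.708 to 0.949). The phosphatase 1 catalytic genes were at 1.08 (1.02 to 1.14) for Ppp1ca, 1.07 (1.0 to 1.13) for Ppp1cb and 1.15 (1.09 to 1.21) for Ppp1cc, and Set, a partner of Pcdh7, at 1.12 (1.07 to 1.17). Smad3, which the tail of Pcdh1 binds, had the highest ratio of the list, 1.21 (1.04 to 1.42). Taok2 was at 1.01 (0.947 to 1.07), Dab1 at 1.01 (0.931 to 1.10) and Nono, a nuclear partner of Pcdh19, at 1.03 (0.999 to 1.06). The kinase Mapk14 was at 1.04 (0.926 to 1.17).

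**Figure D5:**
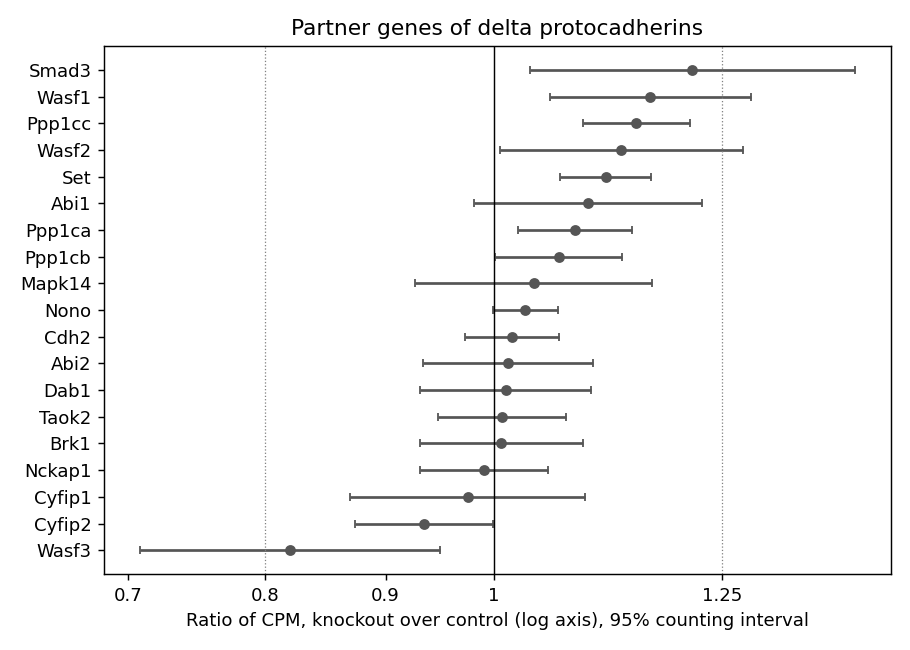
Ratio of CPM, knockout over control (x axis, log), with 95% counting intervals for 19 genes of cytoplasmic, nuclear or surface partners of delta protocadherins, ordered by ratio. Dotted lines stand at ratios 20% below and 25% above 1, and none of the points passes them, from Wasf3 at 0.820 to Smad3 at 1.21.

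The libraries held 8839840 and 8891198 counts (knockout and control). The targeted gene H2afz had 1664 counts against 2605, for a ratio of 0.661 (0.621 to 0.703), counted over the whole gene. The 8 genes of the telencephalic list, Emx1, Emx2 and Tbr1 among them, were all present and within the bound. Their summed levels were 3761 CPM and 3551 CPM. Most of each sum came from the neuronal tubulin gene Tubb3 (2336 CPM and 2165 CPM), which is not particular to the telencephalon. Emx1 stood at 135 CPM and 117 CPM, Emx2 at 96.4 CPM and 93.7 CPM, and Tbr1 at 376 CPM and 370 CPM. Several other marker lists had genes past the same bound, which 7.94% of all tested genes passed as higher and 9.79% as lower. Some of the listed genes have few counts, where counting error passes the bound more easily, so these lists and the members do not compare at like depth. Of 12 genes of the ventral telencephalon 9 were higher past the bound (sums of 1881 CPM and 1437 CPM). In the hypothalamic and diencephalic list, 10 of the 13 tested were lower (195 CPM and 299 CPM). Nkx2-4 had 0 counts in the knockout against 25 in the control. Rax, which was under the level floor and not tested, had 0 against 9. All 8 tested erythroid genes were higher (691 CPM and 364 CPM), as were 5 of 8 microglial ones (42.0 CPM and 28.5 CPM), while 3 of 6 Cajal-Retzius genes were lower (285 CPM and 328 CPM), and so were 3 of 8 tested genes of the meninges and mesenchyme (40.3 CPM and 41.8 CPM). None of 7 endothelial genes passed the bound (116 CPM and 123 CPM). Counting intervals lay above 1 for 11 of 12 ventral, 8 erythroid, 3 microglial and 3 telencephalic genes (12.6% of all tested genes). They lay below 1 for 10 of 13 diencephalic, 4 Cajal-Retzius and 2 mesenchymal genes (11.2%). The mesenchymal sums gave a ratio of 0.963 (0.830 to 1.12), an interval that holds 1. The part of these shifts in the ratios of the delta protocadherins was not tested, and in bulk tissue fewer cells of a type cannot be told from less RNA per cell.

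With 2 libraries the pattern of a gene is its pair of levels. The 3 named protein-coding genes nearest to Pcdh7, the member with the largest absolute log2 ratio, by distance over log2(CPM + 1) of both libraries were Trappc2 (212 counts against 180), Actr6 (213 against 182) and Rad18 (213 against 180). The 13 nearest tested protein-coding genes on either side of the members, leaving out members, had ratios from 0.908 to 1.22. The interval left out 1 for 1 of them, Stim2, a neighbour of Pcdh7, with 377 counts against 331 and a ratio of 1.18 (1.01 to 1.37).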

How the data were processed

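RNA was sequenced from telencephalic tissue of 1 H2AZcKO and 1 H2AZfl/fl sample at embryonic day 12, from libraries made with an Illumina TruSeq RNA kit, per the labels' protocols. The tools TopHat2 2.0.12, Bowtie2 2.2.3 and HTSeq 0.6.0 and the build mm9 are named in the submitters' processing notes without their roles, while the deposited gene positions overlap the same gene in GENCODE M21 (GRCm38) for 99.4% of genes and are identical for 78.6%. The deposited values used here are read counts, 1 whole number per gene and library. The deposited CPM are those counts over totals of 8842436 and 8894180. The authors' fold is the ratio of the CPM columns, the authors' log2 value is its log2, and the authors' p-value comes from a test that no source used here names. The columns headed H2AfZKO and WT were taken as the knockout and the control.

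Symbols were matched by identifier for 19112 genes. Libraries were scaled by TMM (factors 0.986 and 1.01, edgeR 4.0.16 in R 4.3.3), and the printed CPM are those values. Log2 ratios are on log2(CPM + 1), which understates differences of low genes, for genes with at least 1 CPM in the higher library. A count of 0 allows up to 3 counts, or 0.339 CPM and 0.337 CPM before TMM scaling. Exact binomial intervals were computed in Python 3.11.15 with scipy 1.17.1 and tested on simulated data. Named genes are the 8 members, the 4 other non-clustered protocadherins, the 19 partners, the cadherins past 1.5-fold or with the most counts, the targeted gene and the 3 genes nearest to the member with the largest absolute log2 ratio, with clustered genes summed only; the flanking genes and the bounds on span and on counts were chosen after the data were seen. The members and lists were chosen with earlier results of these data known. One telencephalic marker is not reported here and was left out of its list's sum. Alternatives were pseudocounts, level floors, folds, scaling by totals, DESeq2 1.42.0 size factors or deposited CPM, leaving out X and Y, and removing a cubic trend on transcript length, GC content and level, and, added after seeing the data, the longest transcript's length.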

Additional observations from a re-analysis of the deposited data

How the results depend on the processing

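Under 9 alternatives every log2 ratio of a member stayed within its counting interval: Pcdh1 ran from 0.07 to 0.13, Pcdh7 from 0.22 to 0.38, Pcdh8 from 0.11 to 0.18, Pcdh9 from -0.16 to -0.04, Pcdh10 from -0.07 to 0.04, Pcdh17 from 0.00804 to 0.20, Pcdh18 from 0.04 to 0.13 and Pcdh19 from -0.17 to -0.00183. The level floors and leaving out X and Y change which genes are tested and cannot move a member's log2 ratio. Scaling by deposited CPM nearly repeats scaling by totals. Pcdh19 has no value where the X and Y chromosomes were left out. Pcdh10 alone changed side, to 0.04 with the trend on transcript length, GC content and level removed, and under that setting 1 member, Pcdh7, passed the bound of 0.32; the cause was not tested. Other scalings moved the median of all genes to between -0.03 and -0.02, and under each of them 5 members stayed above 0 and 3 below, with none past the bound and every counting interval holding 1.

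Over all tested genes, 1158 were higher past the bound and 1428 lower. These counts were 383 and 483 with a pseudocount of 5 CPM, 580 and 710 with a floor of 5 CPM (fewer genes tested), 280 and 442 at 1.5-fold and 22 and 70 at 2-fold, settings in which no member was past the fold. Per kilobase of the longest transcript the control levels were 12.6 for Pcdh1, 12.2 for Pcdh10 and 2.28 for Pcdh7, against 7.74, 6.32 and 1.89 per kilobase of merged exons. No paired analysis was possible because each genotype has 1 column, and leaving out a replicate was not possible for the same reason. Counting error limits what these depths show. With TMM scaling, a difference of 25% higher could not be told from none for Pcdh7, Pcdh8 and Pcdh18, nor one of 20% lower for Pcdh9. The other scalings shift these intervals, and this list was not redone under them.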
